A study of Mus musculus with 12 samples.

Results

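The genes described here are Kndc1, Rab37, D130009I18Rik, Gm4980 and LOC100862268, 5 of the 23238 gene symbols counted in dorsal root ganglia (DRG) after injury of the sciatic nerve. They were picked by symbol because they were among the largest decreases after injury in these same libraries, so their lower level after injury is described below and not tested. The 5 genes share no known pathway. DRG house the somata of sensory neurons, many of which project through that nerve, among satellite glia, Schwann cells, macrophages and vessels. An axon injury is known to lower many transcripts that mark mature sensory neuron types while it induces regeneration genes. Lumbar ganglia of levels 3 to 5 were taken from C57BL/6 mice in postnatal week 8. The 4 groups were Female SNI, Male SNI, Female sham and Male sham, where SNI stands for sciatic nerve injury, with 3 libraries each and 12 in all. No transgene or drug is named for any group, and neither the interval between surgery and dissection nor the exact lesion is stated in the labels. The labels do not say that replicates were separate animals or how many animals a library holds, so each p-value refers to variation among libraries that may be purely technical.

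Libraries came from polyadenylated RNA read at the 3′ end, with total counts of 12476606 to 15520746, so that 3 counts in a library equal 0.193 to 0.241 CPM (counts scaled to the library total). Atf3, a transcription factor induced by axon injury, was at 275 to 361 CPM in SNI libraries and at 43.6 to 56.7 CPM in sham libraries. Male SNI replicate 2 and Female sham replicate 2 stood apart on the first principal component of log2 CPM (scores of 99.9 and 47.5, the other libraries between -32.8 and 0.963), and results that rest on them are given with and without them. Neuronal transcripts were abundant, with Uchl1, an ubiquitin hydrolase of neurons, at a mean of 5132 CPM. In bulk tissue, fewer cells of a type and less RNA per cell cannot be told apart. Summed over 11 markers, macrophage transcripts were at 252 to 408 CPM in SNI libraries and at 108 to 167 CPM in sham libraries, with 9 of the 11 called as higher and Csf1r, the receptor that defines the cells, at a mean of 60.8 CPM, with exons that overlap Hmgxb3. Neutrophil markers (5 tested, 2 called as higher) summed to 153 to 490 CPM in SNI and 102 to 215 CPM in sham libraries, and skeletal muscle markers (5 tested, none called) to 8.26 to 1190 CPM in SNI and 5.19 to 58.3 CPM in sham libraries. Satellite glia markers (6 tested, 1 called as higher) summed to 4870 to 8120 CPM in SNI and 4080 to 5720 CPM in sham libraries. Over all 15036 tested genes, 3.78% were called as higher. What these cells contribute to the changes of the 5 genes was not tested.

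Kndc1 encodes a guanine nucleotide exchange factor for Ras with KIND domains, also called very-KIND, known in mouse brain for binding the microtubule protein MAP2 and for restraining the growth of dendrites. Rab37 encodes a small GTPase of secretory vesicles, studied in mast cells and other secreting cells. RefSeq lists Gm4980 as an older name of Tpbgl, a protein-coding gene named for its likeness to the trophoblast glycoprotein gene Tpbg. D130009I18Rik is a long noncoding RNA gene. LOC100862268 carries its NCBI gene number in its name, and RefSeq gives that number to Gm16958, also a long noncoding RNA gene. No role in sensory neurons is stated here for the last 3.

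On the mouse build GRCm38, which is the mm10 of the submitters' processing notes, Kndc1 lies on the plus strand of chromosome 7 (139894696 to 139941540) with 29 merged exons. Rab37 lies on the plus strand of chromosome 11 (115091331 to 115162773) with 11 merged exons. D130009I18Rik spans 327640 bases of the plus strand of chromosome 14 (104639144 to 104966783) and has 12 merged exons. Gm4980 has 1 exon on the minus strand of chromosome 7 (99624067 to 99627103). LOC100862268, as Gm16958, has 4 merged exons on the plus strand of chromosome 3 (127161305 to 127168290), inside the gene Ank2 on the minus strand. Ends came from RefSeq GRCm38.p6, and exons and strands from GENCODE release vM21 on the same build.

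No source used here states how strand was handled in counting, so it is unknown whether reads from opposite strands were kept apart. Exons of LOC100862268 share 182 bases with exons of Ank2, and those of Gm4980 share 1168 bases with the antisense noncoding gene Gm10605, so the values of both are uncertain. Ank2, an ankyrin gene of neurons, had 166 ± 7.53 CPM in Female SNI and 177 ± 13.5 CPM in Female sham libraries, and 195 ± 62.6 CPM in Male SNI and 200 ± 35.3 CPM in Male sham libraries (SD, n = 3 each). Its log2 change was -0.06 ± 0.13 (SE; edgeR's quasi-likelihood test, Benjamini-Hochberg adjusted p = 0.88). Kndc1, Rab37 and D130009I18Rik shared no exon base with another gene of that annotation, and Cd300lf lies within the span of Rab37 on the opposite strand with none shared.

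Promoters are shown because the 5 genes were chosen for a common direction of change after injury, and 3 of them have no described role to compare. RefSeq windows from 250 bases before to 50 bases after the start were found for 4 of the 5 genes, from the GRCm38.p6 table. Each is written 5′ to 3′ on the gene's own strand, and capitals mark any GGGCGG on either strand, and likewise any CCAAT and any TATAAA. The windows are chr7:139894446-139894745 (plus strand) for Kndc1, chr14:104638894-104639193 (plus strand) for D130009I18Rik, chr7:99627054-99627353 (minus strand) for Gm4980 and chr3:127161055-127161354 (plus strand) for LOC100862268.
Kndc1: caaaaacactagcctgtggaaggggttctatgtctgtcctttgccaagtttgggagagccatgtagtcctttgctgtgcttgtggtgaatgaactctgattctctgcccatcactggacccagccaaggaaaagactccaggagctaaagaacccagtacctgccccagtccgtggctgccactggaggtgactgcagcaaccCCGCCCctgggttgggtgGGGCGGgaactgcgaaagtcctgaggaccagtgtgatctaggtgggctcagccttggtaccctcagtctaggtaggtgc
D130009I18Rik: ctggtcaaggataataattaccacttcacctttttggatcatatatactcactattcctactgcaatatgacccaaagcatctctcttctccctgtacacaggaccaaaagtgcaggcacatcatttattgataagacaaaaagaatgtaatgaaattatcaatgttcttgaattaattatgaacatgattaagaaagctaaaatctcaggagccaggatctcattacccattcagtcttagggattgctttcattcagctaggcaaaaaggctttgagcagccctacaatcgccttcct
Gm4980: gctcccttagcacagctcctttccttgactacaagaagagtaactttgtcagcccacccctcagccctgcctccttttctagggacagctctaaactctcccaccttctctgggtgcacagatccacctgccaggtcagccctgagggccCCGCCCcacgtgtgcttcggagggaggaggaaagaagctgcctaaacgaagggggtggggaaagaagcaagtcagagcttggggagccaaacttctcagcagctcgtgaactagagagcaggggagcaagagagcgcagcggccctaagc
LOC100862268: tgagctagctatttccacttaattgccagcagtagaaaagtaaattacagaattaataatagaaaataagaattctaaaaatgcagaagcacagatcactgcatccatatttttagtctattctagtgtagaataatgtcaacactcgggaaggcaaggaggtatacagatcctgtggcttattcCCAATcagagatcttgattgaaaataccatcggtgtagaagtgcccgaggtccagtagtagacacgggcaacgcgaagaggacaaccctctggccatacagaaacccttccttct

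GGGCGG, the GC box, stands at 2 places in the Kndc1 window and at 1 in that of Gm4980, and 35.7% of the 32851 RefSeq windows hold it. CCAAT stands once in the window of LOC100862268, against 37.4% of windows with at least 1. TATAAA, in 13.6% of windows, and TGANTCA, the letters read by AP-1 factors, in 7.81%, are in none of the 4. CANNTG, the E-box, is at 2 places in the window of Gm4980 and in none of the other 3, against 72.3% of windows with at least 1. CANNTG and TGANTCA are not in capitals, and no motif of these 5 was found in the window of D130009I18Rik. The share of G and C was 56.3% in the window of Kndc1, 58.3% in that of Gm4980, 40.7% in that of LOC100862268 and 37.7% in that of D130009I18Rik, against a median of 52.7% over the RefSeq windows. The 4 windows thus have no searched motif in common. A match is a description of letters, not a binding site.

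Levels are given as CPM on library totals scaled by TMM factors. Kndc1 had 6.18, 4.69 and 4.70 CPM in Female SNI and 11.6, 11.7 and 12.3 CPM in Female sham libraries. In males it had 6.26, 6.68 and 6.23 CPM after SNI and 15.7, 10.5 and 13.8 CPM after sham. The highest SNI library lay below the lowest sham library by a factor of 1.57, which was the widest gap among the 5 genes. Its log2 change, averaged over the sexes, was -1.13 ± 0.16 (SE), a level of 0.459 times that of sham.

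Rab37 had 5.72, 12.1 and 9.18 CPM in Female SNI and 19.8, 18.8 and 20.2 CPM in Female sham libraries. In males it had 13, 3.92 and 13.2 CPM after SNI and 24, 18.2 and 21.2 CPM after sham. Sham libraries lay close together, whereas Female SNI replicate 1 and Male SNI replicate 2 were far below the other SNI libraries. The coefficient of variation was 41.6% over the 6 SNI libraries and 10.1% over the 6 sham libraries. In Male SNI replicate 2 the count was 51 (exact Poisson interval at 95%, 38.0 to 67.1, counting error only), against 160 and 193 in the other Male SNI libraries. The log2 change was -1.10 ± 0.26, and -0.90 without Male SNI replicate 2.

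D130009I18Rik had 4.49, 5.57 and 5.43 CPM in Female SNI and 14.3, 15.1 and 13.1 CPM in Female sham libraries. Male SNI libraries had 10.7, 5.76 and 6.91 CPM, and Male sham libraries 16, 14.1 and 11.3 CPM. Here the groups came closest to overlapping: Male SNI replicate 1 was only a factor of 1.05 below Male sham replicate 3. The log2 change was -1.14 ± 0.18.

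Gm4980, at a mean of 24.5 CPM over all libraries, had 13.7, 14 and 15 CPM in Female SNI and 29.8, 34 and 38.1 CPM in Female sham libraries. Males had 17.8, 20.6 and 14.6 CPM after SNI and 34.7, 33.2 and 28.3 CPM after sham. Its biological coefficient of variation in the model, 0.166, was the smallest of the 5 and below the median of 0.193 over genes averaging at least 5 CPM, whereas that of Rab37 was 0.316. The log2 change was -1.06 ± 0.12. Tpbg itself had 0 to 21 counts in any library and was not called, at a log2 change of 2.21 ± 0.83 (adjusted p = 0.153). It was called without the 2 libraries that stood apart, at 2.93, and with limma-voom quality weights, at 2.50. Its level was 0.754 ± 0.849 CPM in Male SNI and 0.0503 ± 0.0435 CPM in Male sham libraries (SD, n = 3 each). In females it was 0.761 ± 0.285 CPM after SNI and 0.467 ± 0.382 CPM after sham. Tpbg shares 898 exon bases with 9330154J02Rik, so its value is uncertain, and it was named after its values were seen.

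LOC100862268 had 5.98, 6.39 and 7.12 CPM in Female SNI and 14.6, 16.2 and 12.9 CPM in Female sham libraries. Male SNI libraries had 8.13, 11.1 and 4.18 CPM and Male sham libraries 20.9, 13.3 and 19.4 CPM. Males were thus more spread than females in both conditions, with coefficients of variation of 44.4% and 22.6% after SNI and sham, against 8.89% and 11.1% in females. The log2 change was -1.18 ± 0.21, and -1.35 without Male SNI replicate 2.

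**Figure D1:**
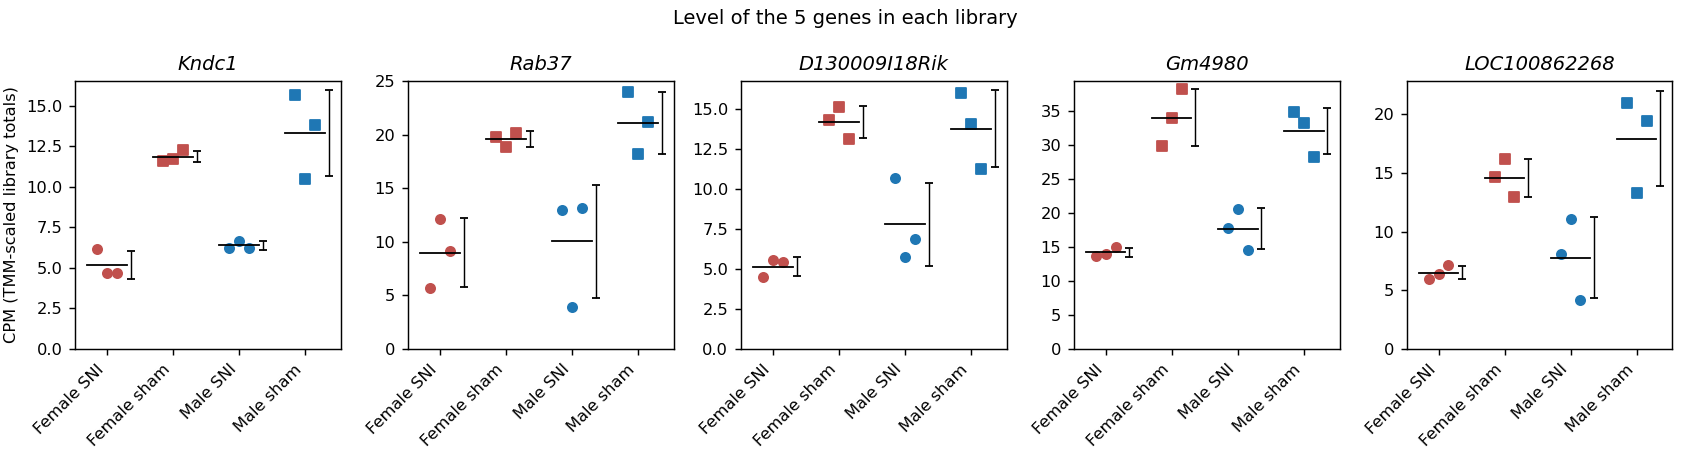
Level of each of the 5 genes in CPM on TMM-scaled totals (vertical axis, from 0) in the 4 groups, females in red and males in blue, circles for SNI and squares for sham; horizontal lines are group means and bars are ±1 SD of 3 libraries. For every gene the 6 SNI libraries lie below the 6 sham libraries, narrowly for D130009I18Rik, and Rab37 has 2 SNI libraries at 5.72 and 3.92 CPM well below the other 4.

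All 5 genes had 6 SNI libraries below 6 sham libraries, and 2.04% of the 15036 genes tested did. Within each sex taken alone, the 5 genes were lower in SNI without overlap, as were 2.82% of tested genes. Since the genes were chosen on this contrast, nothing is read from these counts. Of the tested genes, 6.52% were called after injury and 2.73% were called as lower. Ordered by log2 change among the 10857 genes averaging at least 5 CPM, LOC100862268 stood at place 4, D130009I18Rik at 6, Kndc1 at 7, Rab37 at 9 and Gm4980 at 12. The genes between them were Nog, a BMP antagonist, at -1.18, Mrgpra3, an itch receptor, at -1.10, Frmpd4, a scaffold of dendritic spines, at -1.08, and Whrn, a proprioceptor marker, at -1.07. Just outside were Chodl, also listed as a proprioceptor marker, at -1.22, and Htr7, a serotonin receptor, at -1.02. Frmpd4 did not pass with edgeR (adjusted p = 0.112), nor with any 1 library left out. It passed with DESeq2 (adjusted p = 0.0479), with limma-voom quality weights (adjusted p = 0.0155) and without the 2 libraries that stood apart (adjusted p = 0.0281). Htr7 (adjusted p = 0.04) no longer passed when any 1 of 8 libraries was left out, from all 4 groups.

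Counts by kind of symbol are given as a description. Beside the 5 genes, 7 of 280 tested genes named Gm with a number fell (2.5%), 8 of 696 with a Rik name (1.15%) and none of 5 with a LOC number, against 391 of 14050 other symbols (2.78%). The median log2 change of the classes was -0.0035, -0.05 and 0.28, against 0.01 for other symbols. The median level was 2.53 CPM for Gm numbers and 3.33 CPM for Rik names, against 17.7 CPM for other symbols, and shares of calls at such different levels are not compared.

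Whether males and females differed was tested, since the choice of the genes did not use it. In order of mean level, sham groups stood above SNI groups for every gene. The order was Male sham, Female sham, Male SNI, Female SNI for Kndc1, Rab37 and LOC100862268, and Female sham, Male sham, Male SNI, Female SNI for D130009I18Rik and Gm4980. The ranges of the 2 sham groups overlapped for each gene. The ranges of the 2 SNI groups overlapped for Rab37, Gm4980 and LOC100862268, but not for Kndc1 (6.23 to 6.68 CPM in Male SNI and 4.69 to 6.18 CPM in Female SNI) or D130009I18Rik (5.76 to 10.7 CPM in Male SNI and 4.49 to 5.57 CPM in Female SNI). How many of all tested genes lack such overlap between the sexes was not counted, so nothing is read from these ranges. Averaged over injury, the log2 difference of males over females was 0.23 ± 0.16 for Kndc1, 0.13 ± 0.26 for Rab37, 0.28 ± 0.18 for D130009I18Rik, 0.11 ± 0.12 for Gm4980 and 0.28 ± 0.21 for LOC100862268. None passed edgeR's test (adjusted p = 1 for each, with unadjusted p of 0.146 to 0.612), while 7 of the 15036 genes did, 0.0466%, of which those higher in males were 0.0266%.

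The change after injury was -0.82 ± 0.25 in males and -1.46 ± 0.26 in females for D130009I18Rik, and -0.86 ± 0.17 in males and -1.25 ± 0.18 in females for Gm4980. For Kndc1 it was -1.06 ± 0.22 in males and -1.19 ± 0.23 in females, for Rab37 -1.07 ± 0.37 in males and -1.12 ± 0.37 in females, and for LOC100862268 -1.20 ± 0.30 in males and -1.16 ± 0.30 in females. The difference of these changes, males minus females, was tested and passed for none of the 5. It was largest for D130009I18Rik, at 0.63 ± 0.36 (95% interval -0.13 to 1.40; adjusted p = 0.655 by edgeR's quasi-likelihood test), followed by Gm4980 at 0.39 ± 0.25 (adjusted p = 0.659). The intervals reached from -0.54 to 0.81 for Kndc1, -1.06 to 1.16 for Rab37 and -0.95 to 0.88 for LOC100862268, so differences between the sexes within these bounds could not be told from none. No gene of the 15036 passed this contrast (0%) with edgeR, DESeq2 or limma-voom, and 1100 had an unadjusted p below 0.05 with edgeR.

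Genes beside the 5 in the genome went in several directions. Next to Kndc1 lie Adgra1, an adhesion G protein-coupled receptor, 16608 bases away at a log2 change of -0.89 ± 0.28 (adjusted p = 0.0744), and Adam8, a metalloprotease, 37392 bases away, which rose by 1.43 ± 0.19 (adjusted p = 0.00035). Adgra1 passed without Male SNI replicate 2, at -1.10, without Male sham replicate 3, without both libraries that stood apart (adjusted p = 0.0103), with DESeq2 (adjusted p = 0.033) and with limma-voom (adjusted p = 0.0127). Slc9a3r1, a scaffold protein gene that starts 568 bases past the end of Rab37, was at 0.09 ± 0.11 (adjusted p = 0.761). Cd300lf, an immune receptor gene within Rab37, was at 0.65 ± 0.36 with a mean of only 2.95 CPM (adjusted p = 0.388), and Cd300ld at 0.55 ± 0.73 (adjusted p = 0.78).

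The nearest tested gene to D130009I18Rik was Rnf219, a ubiquitin ligase gene, 116432 bases away at -0.45 ± 0.13 (adjusted p = 0.059), and it was called once Male SNI replicate 2, or Female sham replicate 3, was left out, and with DESeq2 (adjusted p = 0.027). Pou4f1, the sensory neuron transcription factor also called Brn3a, lies behind Rnf219, 171026 bases from D130009I18Rik. It had 185 ± 6.14 CPM in Female SNI and 268 ± 6.85 CPM in Female sham libraries, and 216 ± 29.9 CPM in Male SNI and 229 ± 20.9 CPM in Male sham libraries (SD, n = 3 each). It was called as lower at -0.31 ± 0.08 (adjusted p = 0.0439), and the call held with 1 library left out only for Male SNI replicate 2. It was also lost with the replicate block (adjusted p = 0.0612) and with no filter on low counts (adjusted p = 0.0574). Rbm26, on the other side, was at -0.01 ± 0.11 (adjusted p = 0.988) and shares exons with Gm17066, so its value is uncertain.

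Gm4980 lies between Arrb1, which encodes a beta-arrestin, 17295 bases away, and Slco2b1, an organic anion transporter gene, 30701 bases away. Both were called as higher, at 0.54 ± 0.14 (adjusted p = 0.0293) and 0.68 ± 0.19 (adjusted p = 0.0471), but each lost its call without any 1 of 8 libraries. Slco2b1 also lost it without the 2 libraries that stood apart (adjusted p = 0.0534), on library totals alone and with no filter on low counts, and it shares exon bases with the antisense genes Gm15635 and Gm34280. Besides Ank2, the nearest tested genes to LOC100862268 were Camk2d, a calmodulin kinase gene, at 0.22 ± 0.09 (adjusted p = 0.202) and Larp7, an RNA-binding protein gene, at 0.06 ± 0.12 (adjusted p = 0.863). With edgeR on all 12 libraries, the nearest tested genes thus held 1 called as higher beside Kndc1 and 2 beside Gm4980, and none called as lower. Of all 15036 tested genes, 3.78% were called as higher and 2.73% as lower, and nothing is read from so few neighbours.

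**Figure D2:**
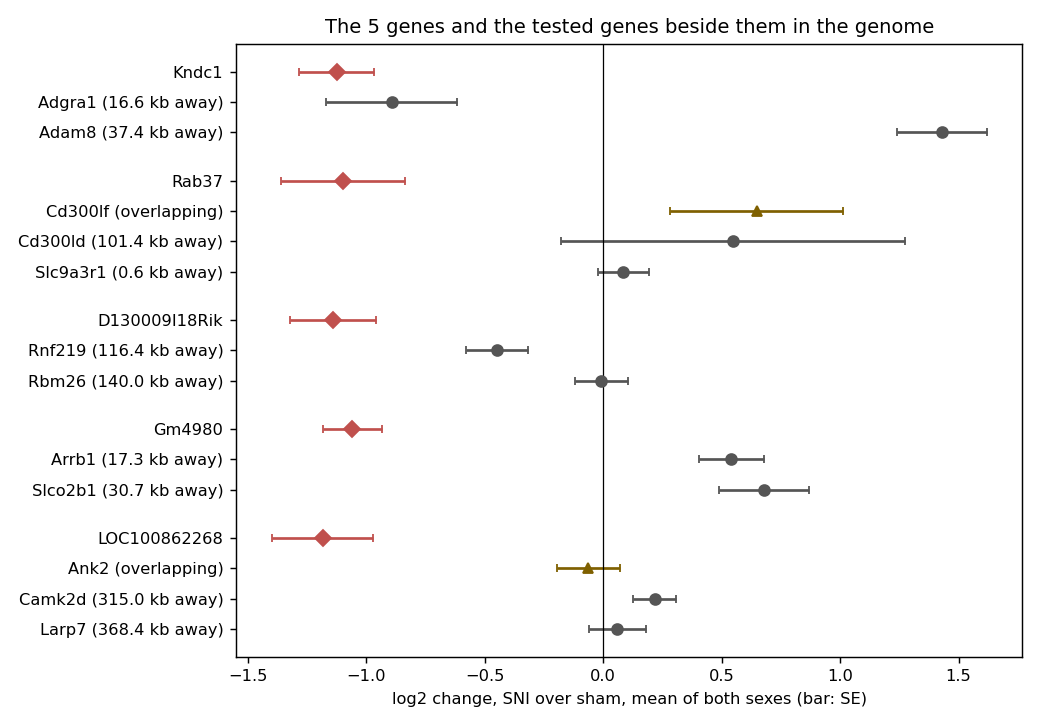
Log2 change of SNI over sham averaged over the sexes (horizontal axis, bars are the SE of the model) for each of the 5 genes (red diamonds), genes that overlap their span (brown triangles) and the nearest tested gene on either side (grey circles, with the distance in kilobases). The 5 genes lie between -1.18 and -1.06, while their neighbours lie between -0.89 for Adgra1 and 1.43 for Adam8.

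The families around Rab37 and Kndc1 were mostly not called, and neither were 14056 of all 15036 tested genes. Of 51 tested Rab GTPase genes other than Rab37, 1 rose and 2 fell, with a median log2 change of 0.07, against 0.00 over the 15036 genes tested, of which 569 rose (3.78%) and 411 fell. Rab27b, a GTPase of secretory granules, was at 46.9 ± 2.61 CPM in Female SNI and 74.1 ± 10.4 CPM in Female sham libraries, and at 46.8 ± 10.3 CPM in Male SNI and 74.4 ± 8.69 CPM in Male sham libraries (SD, n = 3 each). It fell by 0.67 with an SE of 0.12 (adjusted p = 0.00392) and kept its call with any 1 library left out. Rab4a, of recycling endosomes, fell by 0.46 (adjusted p = 0.0262), and Rab22a, an endosomal GTPase, rose by 0.45 (adjusted p = 0.0498). Their calls ended without any 1 of 9 and of 10 libraries. That of Rab22a also ended without both libraries that stood apart (0.34; adjusted p = 0.0597), with the replicate block and with no filter on low counts. Rab6a, the most abundant, was at -0.11 ± 0.13 and shares exons with Mrpl48. Rab26, a close relative of Rab37, had 0 to 18 counts per library and was not tested. Without Male SNI replicate 2 and Female sham replicate 2, 3 Rab genes rose, Rab22a not among them, and 3 fell, in a fit where 6.69% of all tested genes rose and 5.4% fell.

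Of 13 tested genes of Rab effectors and regulated exocytosis, 2 fell and 11 were not called, at a list median of -0.15, where 2.73% of all tested genes fell. Rph3a, which encodes the Rab3 and Rab27 effector rabphilin, was at 193 ± 5.79 CPM in Female SNI and 389 ± 49.5 CPM in Female sham libraries, and at 238 ± 51.2 CPM in Male SNI and 346 ± 6.62 CPM in Male sham libraries. It fell by 0.77 with an SE of 0.10 (adjusted p = 0.00035). Rims2, an active zone scaffold gene, fell by 0.36 (adjusted p = 0.02), a call that ended without any 1 of 6 libraries. Without the 2 libraries that stood apart, 3 of these genes fell and 1 rose, in a fit where 5.4% of all tested genes fell and 6.69% rose.

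Mast cells, in which Rab37 is known, were looked for by 8 marker genes. Of these 5 were tested, and their sum was 13.9 to 30.3 CPM in SNI and 12.6 to 28.0 CPM in sham libraries. Tpsb2, a mast cell tryptase gene and the most abundant, was at 0.10 ± 0.31 (adjusted p = 0.921), and Tpsab1, Ms4a2 and Fcer1a were too low to test. Hdc, the histamine-forming enzyme, which other cells also make, rose by 1.34 ± 0.27 (adjusted p = 0.00873).

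Of 27 tested Ras-family exchange factor genes other than Kndc1, 1 rose and 1 fell, with a median of -0.07. Among all tested genes 3.78% rose and 2.73% fell. Rasgrf2, an exchange factor controlled by calcium, was at 183 ± 10.5 CPM in Female SNI and 79.2 ± 14.8 CPM in Female sham libraries, and at 231 ± 109 CPM in Male SNI and 71.4 ± 8.71 CPM in Male sham libraries. It rose by 1.45 ± 0.18 (adjusted p = 0.000231), the opposite direction to Kndc1. Rasgrp1, activated by diacylglycerol, fell by 0.63 with an SE of 0.13 (adjusted p = 0.00792). Without the 2 libraries that stood apart, 1 of the exchange factor genes rose and 3 fell, against 6.69% and 5.4% of all genes tested in that fit. None of the other KIND domain genes Spire1, Spire2 and Ptpn13 or Map2 was called, and Map2, the partner of the Kndc1 protein, was at -0.15 ± 0.08 (adjusted p = 0.353).

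Markers of sensory neuron types give the setting of these decreases. Of 7 proprioceptor markers 5 fell, led by Chodl, Whrn, the transcription factor gene Etv1 at -0.88 ± 0.12 and the nuclear receptor gene Esrrg at -0.75 ± 0.16, and the list median was -0.88, against 2.73% of all tested genes that fell. Of 11 genes of large myelinated neurons 8 fell, with a median of -0.50, among them the potassium channel genes Kcns1 at -0.84 and Kcna2 at -0.76, the sodium channel gene Scn1a at -0.75 and the abundant neurofilament gene Nefh at -0.50. Of 10 nonpeptidergic nociceptor markers 5 fell (median -0.48), of 10 peptidergic nociceptor markers 3 fell (median -0.39), of 9 itch neuron markers 1 fell (median -0.39) and of 11 general neuron genes 3 fell (median -0.10). Of 7 markers of A-fibre low-threshold mechanoreceptors, Necab2 fell and Ret rose (median -0.40), calls that ended without any 1 of 6 and of 10 libraries. In other lists, calls also ended without any 1 of several libraries. These were Scn11a (nonpeptidergic, 9 libraries), Calcb and Tac1 (peptidergic, 3 and 2) and Hapln4 (large myelinated, 5). All calls of general neuron genes did so, for Rbfox3 and Isl1 with 8 libraries each and for Pou4f1 with 11. Some called genes of the large myelinated list were not followed in this way. None of 5 markers of C-fibre low-threshold mechanoreceptors or 2 of cold neurons was called. Without the 2 libraries that stood apart, the counts that fell were 5, 9, 8, 3, 1, 4, 2, 3 and 0, in the same order of lists, and 2 general neuron genes and 1 A-fibre marker rose. In that fit 825 of all 15290 tested genes fell (5.4%) and 1023 rose (6.69%).

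Which of these markers the 5 genes follow from library to library was described apart from the change after injury. The mean of its group was taken from each gene's log2 CPM, and Pearson's r of the remaining deviations was computed over the 12 libraries. Values given within SNI or within sham libraries used log2 CPM with no group mean subtracted, so differences between the sexes stay in. They are thus a different measure from the r over 12 libraries. Libraries share depth, dissection and cell makeup, many gene pairs have high r under these conditions, and no test was made. For Rab37, 90% of the other 10852 genes averaging at least 5 CPM had an r between -0.77 and 0.79, for Gm4980 between -0.74 and 0.77, for LOC100862268 between -0.75 and 0.76, for D130009I18Rik between -0.56 and 0.58 and for Kndc1 between -0.47 and 0.49. Of the 76 listed neuron markers, 61 had a mean of 5 CPM or more and were compared.

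Rab37 was closest to Ntrk3 (r = 0.86), the receptor of neurotrophin 3 on proprioceptors and mechanoreceptors, and to Mrgpra3 (r = 0.85), a receptor of itch neurons. Next came Osmr (r = 0.76), the oncostatin M receptor, also in the itch neuron list, and the farthest was Gfra2 (r = -0.85), a GDNF family receptor. The 6 compared itch neuron markers had a median r of 0.22 with Rab37, with Il31ra at -0.56. Male SNI replicate 2, the library lowest in Rab37, was also lowest in Ntrk3, at 48.6 CPM against 77.2 to 91.8 CPM in the other SNI libraries and 88.9 to 144 CPM in sham libraries. Without it and Female sham replicate 2 the r was 0.46 with Ntrk3, 0.28 with Osmr and -0.33 with Gfra2, but 0.83 with Mrgpra3. Mrgpra3 had 6.50, 10.2 and 8.00 CPM in Female SNI and 14.2, 17.2 and 19.1 CPM in Female sham libraries, and 8.21, 5.61 and 9.45 CPM in Male SNI and 20.6, 14.4 and 17.5 CPM in Male sham libraries. Within the 6 SNI libraries its r with Rab37 was 0.94 and within the 6 sham libraries 0.74.

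Among all genes, Rab37 was closest to Cxcr4, the chemokine receptor (r = 0.98), Irak2, a kinase of interleukin 1 and Toll-like receptor signaling (r = 0.97), and D3Ertd751e (r = 0.96). These values were 0.93, 0.895 and 0.90 without the 2 libraries that stood apart. Cxcr4 had 6.63, 13.5 and 9.55 CPM in Female SNI and 9.66, 8.02 and 9.16 CPM in Female sham libraries, and 12.1, 3.46 and 10.7 CPM in Male SNI and 14.2, 8.80 and 13.1 CPM in Male sham libraries. In each of the 4 groups the library lowest in Cxcr4 was also the lowest in Rab37, while SNI and sham levels of Cxcr4 overlapped. Among markers of other cells, the 5 neutrophil genes had a median r of 0.78 with Rab37, which was 0.55 without the 2 libraries that stood apart, 0.85 within SNI and -0.03 within sham libraries; the part of such cells was not tested.

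D130009I18Rik was closest among the neuron markers to Tubb3 (r = 0.86), a tubulin of neurons, which had place 8 among all 10852 genes. By the same order, the closest marker had place 165 for Rab37, 355 for Gm4980, 124 for LOC100862268 and 450 for Kndc1. After Tubb3, D130009I18Rik was closest to Sst, somatostatin (r = 0.67), and Foxp2 (r = 0.63), and farthest from the potassium channel gene Kcna2 (r = -0.80). With Tubb3 the r was 0.79 without the 2 libraries that stood apart, 0.70 without Male SNI replicate 1, in which both genes were highest among SNI libraries, and 0.82 and 0.74 within the SNI and the sham libraries. Its closest gene of all was Sncg (r = 0.93), gamma-synuclein, an abundant protein of sensory neurons, followed by Taf5, a subunit of the transcription factor TFIID (r = 0.91), and Slc25a51, a mitochondrial carrier gene (r = 0.90). The r of D130009I18Rik with Sncg was 0.92 without the 2 libraries and 0.80 and 0.67 within SNI and sham libraries. With Slc25a51 it was 0.34 and 0.08 within SNI and sham libraries, with sex differences left in. Exons of Taf5 overlap Usmg5. Skeletal muscle genes had a median r of 0.66 with D130009I18Rik, at 0.89 within SNI and -0.27 within sham libraries, and their part was not tested.

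Gm4980 was closest to Th (r = 0.80), the enzyme that marks C-fibre low-threshold mechanoreceptors, Uchl1 (r = 0.77) and Slc17a7, a vesicular glutamate transporter gene (r = 0.69), and farthest from Osmr (r = -0.77). The r with Th was 0.96 within SNI and 0.64 within sham libraries. LOC100862268 was closest to Uchl1 (r = 0.84), Il31ra, an itch cytokine receptor gene (r = 0.82), and Th (r = 0.82), and farthest from Snap25, a synaptic vesicle fusion gene (r = -0.82). Within SNI libraries the r was 0.81 with Uchl1 and -0.97 with Snap25, and within sham libraries it was -0.05 and 0.13, with sex differences left in. Exons of Uchl1 overlap those of Uchl1os, and its value is uncertain.

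Kndc1 had no marker with an r above 0.52. The highest were Nppb, a natriuretic peptide of itch neurons (r = 0.51), Pou4f1 (r = 0.50) and Ret (r = 0.49), and the lowest was Sst (r = -0.43). Its closest genes of all were Cdc25a, a cell cycle phosphatase (r = 0.93), Pik3ip1, an inhibitor of phosphoinositide 3-kinase (r = 0.91), and Zbtb6, a zinc finger gene (r = 0.87). With sex differences left in, the r of Pik3ip1 was 0.93 and 0.96 within SNI and within sham libraries. That of Cdc25a was 0.01 and 0.93, and that of Zbtb6, whose exons overlap Zbtb26, -0.24 and 0.87. Gm4980 was closest to Nrros (r = 0.96), Jmjd1c (r = 0.95) and Vps26b, a retromer subunit gene (r = 0.94), and LOC100862268 to Cox19, an assembly factor of cytochrome oxidase (r = 0.97), Irak1 (r = 0.95) and Ehbp1l1 (r = 0.95).

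**Figure D3:**
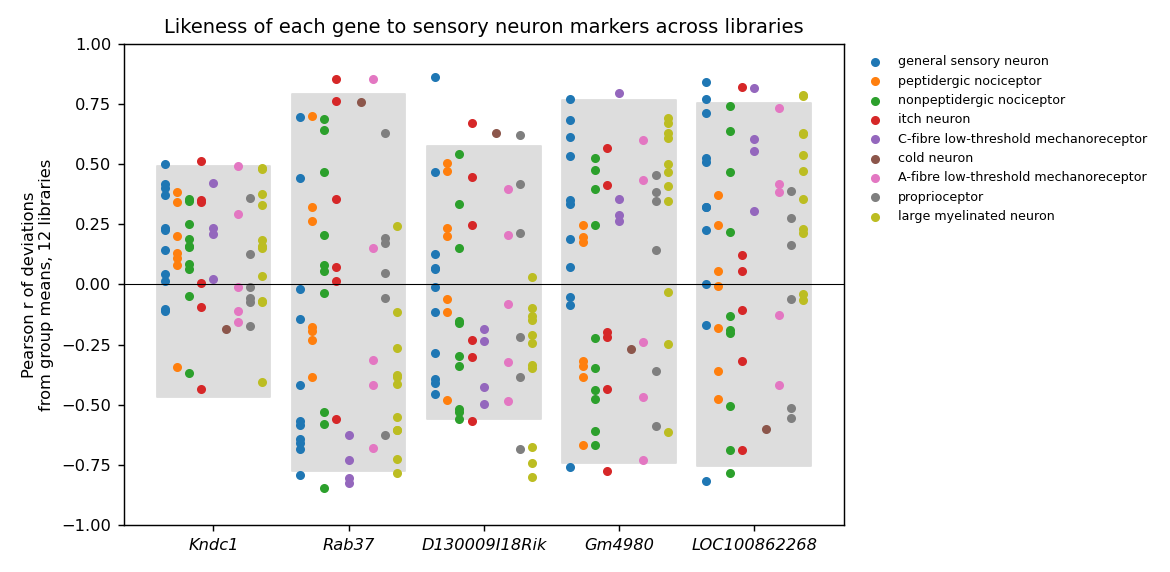
Pearson's r (vertical axis) between each of the 5 genes and 61 sensory neuron markers, as deviations from group means of log2 CPM over 12 libraries, coloured by marker list; grey bands hold 90% of 10852 genes averaging at least 5 CPM. Most markers lie within the bands. For Rab37 those outside include Ntrk3 and Mrgpra3 above and Gfra2 below. For D130009I18Rik they include Tubb3, Sst, Foxp2 and Pvalb above and Kcna2, Scn8a, Esrrg and Kcns1 below. For both Gm4980 and LOC100862268 they include Th above and Snap25 below. The 4 C-fibre low-threshold mechanoreceptor markers lie between -0.83 and -0.63 for Rab37, Th and Zfp521 inside its band.

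Likeness among the 5 genes themselves varied with the libraries used. Over the 10 pairs of them, r lay between -0.47 (Rab37 and LOC100862268) and 0.66 (Rab37 and D130009I18Rik). Rab37 and D130009I18Rik had 0.39 without the 2 libraries that stood apart. D130009I18Rik had 0.07 with Gm4980 and 0.01 with LOC100862268, but 0.64 and 0.63 without those libraries. Within the 6 sham libraries, with sex differences left in, the highest of the 10 pairs were those among Kndc1, Rab37 and LOC100862268. Among sham libraries each of these genes was highest in Male sham replicate 1, and within Male sham each was lowest in replicate 2. No band over all genes was computed for r within sham libraries. The r was 0.97 for Kndc1 and Rab37, 0.86 for Kndc1 and LOC100862268 and 0.78 for Rab37 and LOC100862268. Within the 6 SNI libraries the same pairs had -0.41, 0.17 and -0.59, and the highest pair was Gm4980 and LOC100862268 at 0.82, against -0.36 within sham libraries. Among neuron lists with at least 3 compared markers, none had a median r outside the 90% band of its gene. That band is of single genes, and a median over several genes spreads less. Whether a list stands out thus cannot be read from it. The highest median was 0.58, of C-fibre low-threshold mechanoreceptor markers (4 genes) with LOC100862268. The lowest was -0.77, of the same list with Rab37, and it was -0.33 without the 2 libraries. The cold neuron list had 1 compared marker, Foxp2, at 0.76 with Rab37 and, above the band, at 0.63 with D130009I18Rik.

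**Figure D4:**
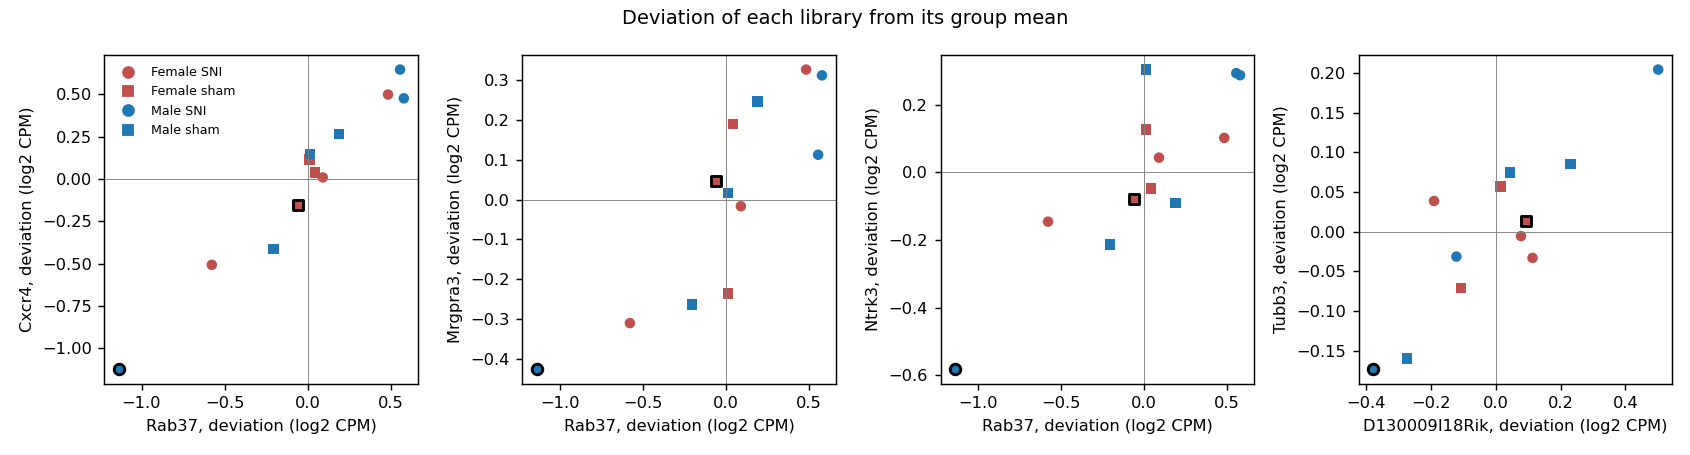
Deviation of each library from its group mean in log2 CPM for Rab37 (horizontal axis, first 3 panels) against Cxcr4, Mrgpra3 and Ntrk3, and for D130009I18Rik against Tubb3; red is female, blue male, circles SNI, squares sham, and black outlines mark Male SNI replicate 2 and Female sham replicate 2. The Cxcr4 and Mrgpra3 points keep their slope without the outlined libraries (r = 0.93 and 0.83), whereas that of Ntrk3 rests largely on Male SNI replicate 2 (r = 0.46 without both).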

How the data were processed

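The authors deposited 1 file per library with raw counts per gene symbol, per the file headers; 35 symbols stood on more than 1 row and were summed. The labels' protocols name the QuantSeq 3′ mRNA kit, and the submitters' processing notes name Bowtie2, bedtools and mm10 with no role. Multiply mapped reads and duplicates are not described in the sources used here, so intervals and floors cover counting error only.

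Genes kept by edgeR's filterByExpr (minimum count 10), 15036 in all, were scaled by TMM and fitted with 1 coefficient per group over all 12 libraries (edgeR 4.0.16, limma 3.58.1, DESeq2 1.42.0, R 4.3.3). Quasi-likelihood F tests, two-sided, were adjusted by Benjamini-Hochberg over all tested genes and called at 0.05. Changes are given with the SE of the model. The model was tested on simulated data that had the same biological coefficient of variation for every gene and no library that stood apart. Likeness used log2 CPM with a prior count of 2, and group means were not subtracted for values within SNI or within sham libraries.

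The 5 genes, the gene lists and the tests were chosen with earlier results of these data known. Genes were named by a fixed rule: the 5 genes; the 3 most like each, and the 3 closest and 1 farthest neuron markers; in each list up to 4 called genes with the largest change and the most abundant; genes beside the 5 in the genome and in the order of decreases. Deviations of same-numbered replicates had an r of -0.091 to 0.43, above 0.1 in 3 of 18 pairs, and the numbers were not taken as pairs.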

Additional observations from a re-analysis of the deposited data

How the results depend on the processing

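The log2 change of each of the 5 genes kept its sign and stayed within 1 SD of its value under all 20 alternatives, from -1.20 to -1.06 for Kndc1, -1.23 to -0.90 for Rab37, -1.29 to -0.98 for D130009I18Rik, -1.12 to -1 for Gm4980 and -1.35 to -1.03 for LOC100862268; since the genes were chosen on this contrast, that is no support. The 980 genes called for injury became 1848 without both libraries that stood apart, 2274 with limma-voom quality weights, and 626 to 1766 with 1 library left out (1766 without Male SNI replicate 2). The 7 genes called between the sexes became 12 with DESeq2, 11 without both libraries, 13 with limma-voom and 6 to 9 with 1 left out. Interaction calls stayed at 0. Replicate numbers were not taken as pairs. With the number as a replicate block, 936 genes were called for injury and 6 for sex, and the sex difference in the change of Rab37 was -0.01235. The calls of Pou4f1 (-0.3105), Rab22a (0.4419) and Ret (0.3173) ended under that block.

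Sex differences in the change, none called, changed sign for Rab37 with library totals alone (-0.01526) and with 1 library left out (-0.1953 to 0.431), for Kndc1 (-0.01532 to 0.2759) and for LOC100862268 (-0.3878 to 0.271). Uncalled log2 changes after injury also crossed 0 with 1 library left out, for Ank2 (-0.2116 to 0.01095), Foxp2 (-0.3408 to 0.1074), Il31ra (-0.09312 to 0.2417), Larp7 (-0.002191 to 0.149), Rab6a (-0.1875 to 0.003776), Rbm26 (-0.07533 to 0.05985), Tpsb2 (-0.02773 to 0.4155) and Uchl1 (-0.1276 to 0.03389). Without both libraries they were 0.003139 for Foxp2, -0.06731 for Il31ra and 0.0629 for Rbm26, and with limma-voom -0.03973 for Il31ra and 0.06556 for Rbm26. The cause was not tested.

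Likeness to the closest marker moved more, and values within SNI or within sham libraries kept the differences between the sexes. Kndc1 and Nppb had a Spearman rho of 0.301, an r of 0.122 within sham libraries and 0.168 to 0.715 with 1 library left out. Rab37 and Ntrk3 had a rho of 0.685, 0.457 within sham, 0.462 without both libraries and 0.468 to 0.949 with 1 left out. D130009I18Rik and Tubb3 had a rho of 0.678, 0.741 within sham, 0.79 without both and 0.697 to 0.955 with 1 left out. Gm4980 and Th had 0.648 on plain library totals, a rho of 0.671, 0.963 within SNI, 0.643 within sham and 0.626 to 0.903 with 1 left out. LOC100862268 and Uchl1 had 0.758 without both, a rho of 0.664, -0.0497 within sham and 0.656 to 0.891 with 1 left out. Counting error is a further limit: Rab37 had 51 counts in Male SNI replicate 2, with an interval of 38.0 to 67.1. The other Male SNI libraries had 160 and 193 counts of Rab37.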
